A study of Anser cygnoides with 12 samples.

Results

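The 490 gene models described here lie on the sequences named chr12 (320 models) and chr23 (170 models) in the IDs of a goose breast muscle count table. They are all models of these sequences with a mean abundance from 1 to below 300 CPM (counts per 1000000 counts of the library), out of 23065 models in the table and 12744 in the same abundance range. Breast muscle of Anser cygnoides of the Xingguo grey breed was sequenced as poly(A)-selected RNA in 12 libraries. The high_IMF group held 5 libraries (titles M001, M006, M0011, M0027 and M0035) from muscle with a high content of intramuscular fat, the fat stored within the muscle. The low_IMF group held 7 libraries (F001, F006, F009, F0010, F0011, F0013 and F0016) from muscle with a low content. The labels give no age, sex, diet or other treatment for either group, do not explain the letters M and F, and leave unsaid whether 1 bird gave 1 library, so p-values measure only the spread between these samples.

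A bird genome has a few large chromosomes and many small ones, and the small ones are as a rule richer in genes and in G and C bases. Assembly pieces that could not be placed on a chromosome are kept as contigs, which often hold repeats and base compositions that are hard to assemble. Birds also carry Z and W sex chromosomes, and Z-linked genes are only partly compensated for dose. The IDs number the chromosomes and name neither Z nor W. Neighbouring genes can share a level of expression through shared regulation, copy number or the way their sequence is recovered in a library, so values read in order along a chromosome show whether a difference touches single genes, a stretch or the whole sequence.

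The number after the chromosome name was taken as the order of the models and not as a distance. The table listed 522 models on chr12, numbered 2 to 1594, of which 191 lay below the abundance range (77 of them without a count) and 11 above it. It listed 297 on chr23, numbered 28 to 1120, of which 127 lay below (68 without a count) and 0 above. The abundances next to the limits were 0.982 and 1.00 CPM at the lower limit of chr12, 211 and 306 CPM at its upper limit, and 0.972 and 1.01 CPM at the lower limit of chr23, whose most abundant model stood at 212 CPM. The 320 models held 0.679% of all counts and the 170 held 0.356%. Total counts per library ran from 13481727 to 18458606, so 1 CPM is fewer than 20 counts and values of scarce models carry a large counting error. The IDs come without gene names and 0 of 23065 matched the reference gene table, so gene functions, sequences and a check of the tissue by its marker genes are not given.

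Each value below is a log2 deviation. The log2 CPM of a model in a library (scaled by the TMM factor, prior count 2) had the mean of that model over the 12 libraries subtracted, and then the library's median over the 12744 models of the same abundance range. A value of 0 means that a model stood where the typical model of that library stood.

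F001 and F009 were low on both chromosomes, M001 was low on both, and F0010 was high on both. On chr12 the median deviations of the high_IMF libraries were -0.24 in M001, 0.12 in M006, 0.003 in M0011, 0.13 in M0027 and 0.002 in M0035. Those of the low_IMF libraries ran from -0.23 (F001) through a median of 0.01 to 0.27 (F0010), with F009 at -0.13 and F006 at -0.08. M001 and F001 were the lowest, 1 library of each group, and the low_IMF library F0010 was the highest, above M0027, so the high_IMF range lay mostly within that of low_IMF. On chr23 the high_IMF libraries stood at -0.19 in M001, 0.17 in M006, -0.06 in M0011, 0.18 in M0027 and 0.08 in M0035. The low_IMF libraries ran from -0.32 (F001) through a median below 0.001 to 0.26 (F0010), and F009 was at -0.28. In bulk tissue, fewer cells that express a gene and less RNA per cell cannot be told apart in these values.

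The low values of F001 were found on these chromosomes to an extent not seen elsewhere in that library. Its medians on the 37 other chromosomes with at least 20 models in the range ran from -0.11 to 0.08, and 0 of the 37 were below its chr12 or its chr23 median. For F009 the other chromosomes ran from -0.22 to 0.18, with 0 of 37 below its chr23 median and 4 of 37 below its chr12 median. M001 differed from both, since its other chromosomes ran from -0.32 to 0.71, with 5 of 37 below its chr12 and 9 of 37 below its chr23 median. F0010 had 0 of 37 other chromosomes above its chr12 or chr23 median, but its highest other chromosome, chr20, reached 0.25, close to 0.27 and 0.26. M006 likewise had 0 of 37 above either median (highest other 0.11), and F0016 had 0 of 37 above its chr12 median of 0.13 (highest other 0.12). On chr12 these margins were narrow, and low values in other libraries raise them, as deviations are from the mean over libraries. With F001 left out, the chr12 medians were 0.08 in M006 and 0.10 in F0016, and the ranks were not redone.

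**Figure D1:**
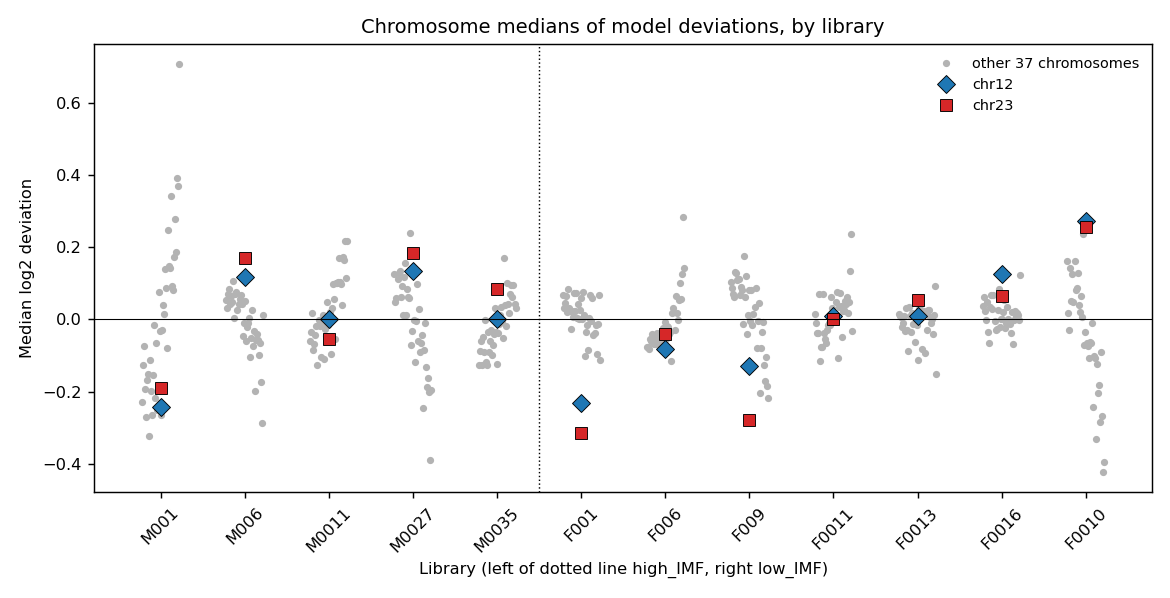
Median log2 deviation (vertical axis) of each chromosome in each library (horizontal axis), with grey points for the 37 other chromosomes in order of their number, blue diamonds for chr12 and red squares for chr23. In F001 both markers, at -0.23 and -0.32, lie under all grey points, and in F009 the chr23 marker at -0.28 does.

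The shift of F001 touched most models and was larger among the abundant ones. On chr23, 124 of 170 models (72.9%) were below 0 in F001, with quartiles of -0.66 and 0.06, and 116 of 170 (68.2%) in F009, with quartiles of -0.60 and 0.17. On chr12, 219 of 320 (68.4%) were below 0 in F001 and 196 of 320 (61.3%) in F009. For the 80 models of chr23 with a mean of at least 10 CPM the F001 median was -0.51, and for the 90 scarcer ones it was -0.15. In F009 the same classes stood at -0.27 and -0.28, so abundance made no such difference there. On chr12 the F001 medians were -0.30 for 171 models of at least 10 CPM and -0.17 for 149 scarcer ones. The summed counts, which rest on the abundant models, gave log2 shifts from the mean of the libraries of -0.30 on chr12 and -0.44 on chr23 in F001, and of -0.09 and -0.20 in F009.

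Windows of 20 consecutive models showed where along each chromosome these shifts lay. chr12 gave 16 windows and chr23 gave 9, the last of them with 10 models. On chr23 both F001 and F009 were below 0 in 9 of 9 windows, where they were below 0 in 41.8% and 40.7% of 462 windows on other chromosomes. The shift was nevertheless uneven in F001. Its 4 first windows (models 48 to 478) had medians of -0.62, -0.53, -0.36 and -0.66. Of the 5 later windows, windows 6 and 9 stood at -0.41 and -0.32, and windows 5, 7 and 8 at -0.02, -0.04 and -0.05. The first 80 models had a combined F001 median of -0.49 with 67 of 80 below 0, and the last 90 (models 486 to 1120) a median of -0.15 with 57 of 90 below 0. Among models of at least 10 CPM the medians were -0.68 over the first 40 and -0.41 over the last 40. In F009 these 2 parts differed less, with -0.31 in the first 80 and -0.23 in the last 90 models. Its window medians ran from -0.56 (window 1) to -0.03 (window 8) without a steady trend, with window 3 at -0.07 and window 6 at -0.39.

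**Figure D2:**
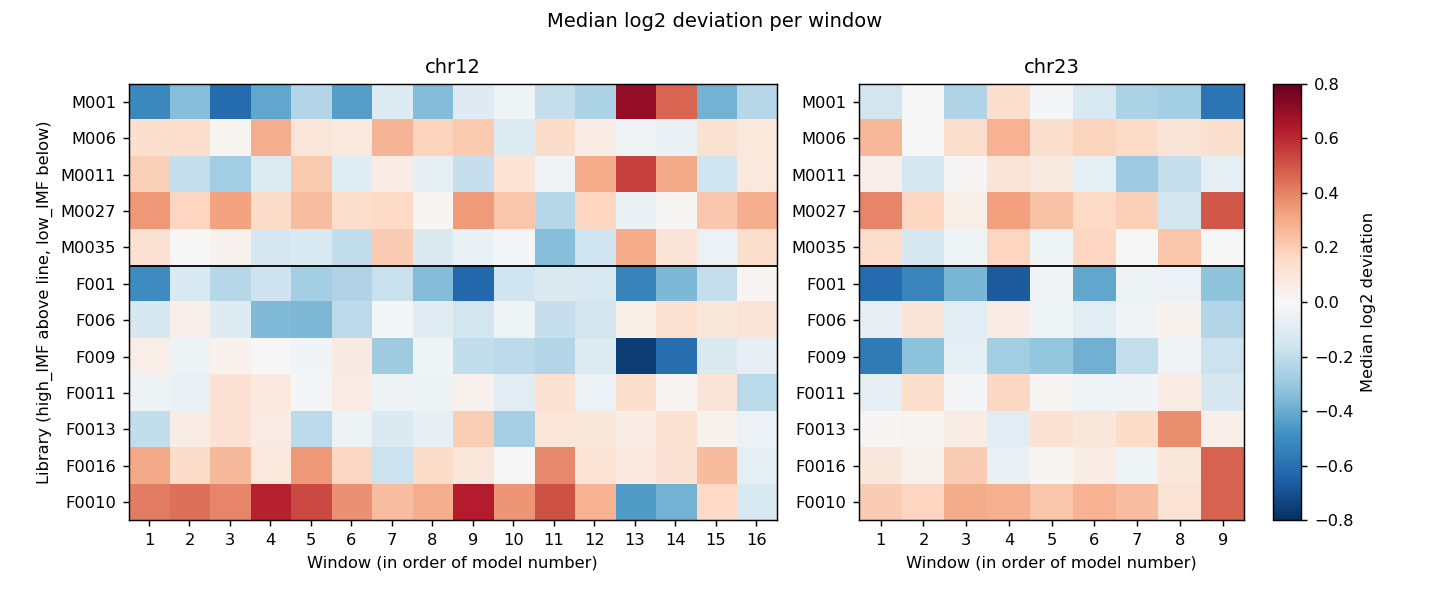
Median log2 deviation (colour, from blue for low to red for high) of each window of consecutive models (columns, in order of model number) in each library (rows, high_IMF above the black line). F001 and F009 are blue in all 9 windows of chr23, and windows 13 and 14 of chr12 change colour in M001 and F0010.

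F001 was the lowest of the 12 libraries in 5 of 9 chr23 windows and F009 in 1. F001 and F009 were together the 2 lowest libraries in 4 of the 9 windows of chr23 and in 3 of the 16 of chr12, against 3 of 462 (0.649%) on other chromosomes. Of the 65 other pairs of libraries, the highest such counts were 2 on chr23 and 4 on chr12, the latter for M001 and F001. The F001 medians of windows 1, 2, 4 and 6 of chr23 and of windows 1, 9 and 13 of chr12 were below those of all 462 windows elsewhere, as were the F009 medians of window 1 of chr23 and windows 13 and 14 of chr12. Model by model, the deviations of F001 and F009 correlated with r = 0.305 over the 320 models of chr12 and 0.236 over the 170 of chr23. The same correlation on the other chromosomes ran from -0.124 to 0.471 with a median of 0.129. These points share libraries and the subtracted model means, and the correlations are descriptions.

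The low values of F001 and F009 showed directly in some of the most abundant models. Among windows 1 to 4 of chr23 the most abundant was model number 210, the first of window 2. Its scaled CPM (count over the total times the TMM factor) was 414 in M001, 247 in M006, 322 in M0011, 231 in M0027 and 295 in M0035. In low_IMF it was 70.2 in F001, 74.0 in F009, 178 in F0016, 187 in F0011, 203 in F006, 209 in F0013 and 210.4 in F0010. F001 and F009 were thus apart below the other 10 libraries. The TMM factor raised scaled values in M001 and M0011. For model number 1011 of chr23 it took 5.93 CPM to 11.9 in M001 and 3.20 CPM to 4.69 in M0011. In F0013 it lowered 6.12 CPM to 4.52. In windows 1 to 12 of chr12 the most abundant model, number 1018, stood at 62.9 in F001 and 60.5 in F009, while the other low_IMF libraries ran from 102 to 205 and the high_IMF libraries from 135 to 426. The pattern did not extend to each model, as number 703, the most abundant of windows 5 to 9 of chr23, stood at 88.7 in F001 and at 202 in F009, with the other low_IMF libraries from 117 to 197 and the high_IMF libraries from 43.6 to 237. In windows 13 and 14 of chr12 the most abundant model was number 1248. It stood at 221 in F001, the highest low_IMF value, and at 174 in F009. The other low_IMF libraries ran from 129 to 204 and the high_IMF libraries from 203 to 346.

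On chr12 a sharp stretch interrupted the profile. In windows 1 to 12 (models 4 to 1193, 240 models) M001 had a median of -0.30 and F0010 one of 0.39, with F001 at -0.25 and F009 at -0.07. In windows 13 and 14 (models 1195 to 1334, 40 models) M001 stood at 0.60 and F0010 at -0.46, the reverse of their signs before. F009 dropped to -0.69 and F001 to -0.44 there. Such levels also occurred elsewhere in M001 and F0010. Of 462 windows on other chromosomes, 14 and 48 were higher than windows 13 and 14 in M001. In F0010, 32 and 58 were lower. In windows 15 and 16 (models 1338 to 1594, 40 models) M001 was back at -0.29, F0010 at 0.03, F001 at -0.12 and F009 at -0.09. Over the 40 models of windows 13 and 14, the high_IMF libraries stood at 0.60 in M001, -0.03 in M006, 0.48 in M0011, -0.002 in M0027 and 0.15 in M0035. The low_IMF libraries ran from -0.69 (F009) through a median of 0.05 to 0.12 (F0016). M001 and M0011 were high, F001, F009 and F0010 were low, and the groups overlapped. The stretch was chosen after the windows had been seen, so these values describe it and are not a test.

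**Figure D3:**
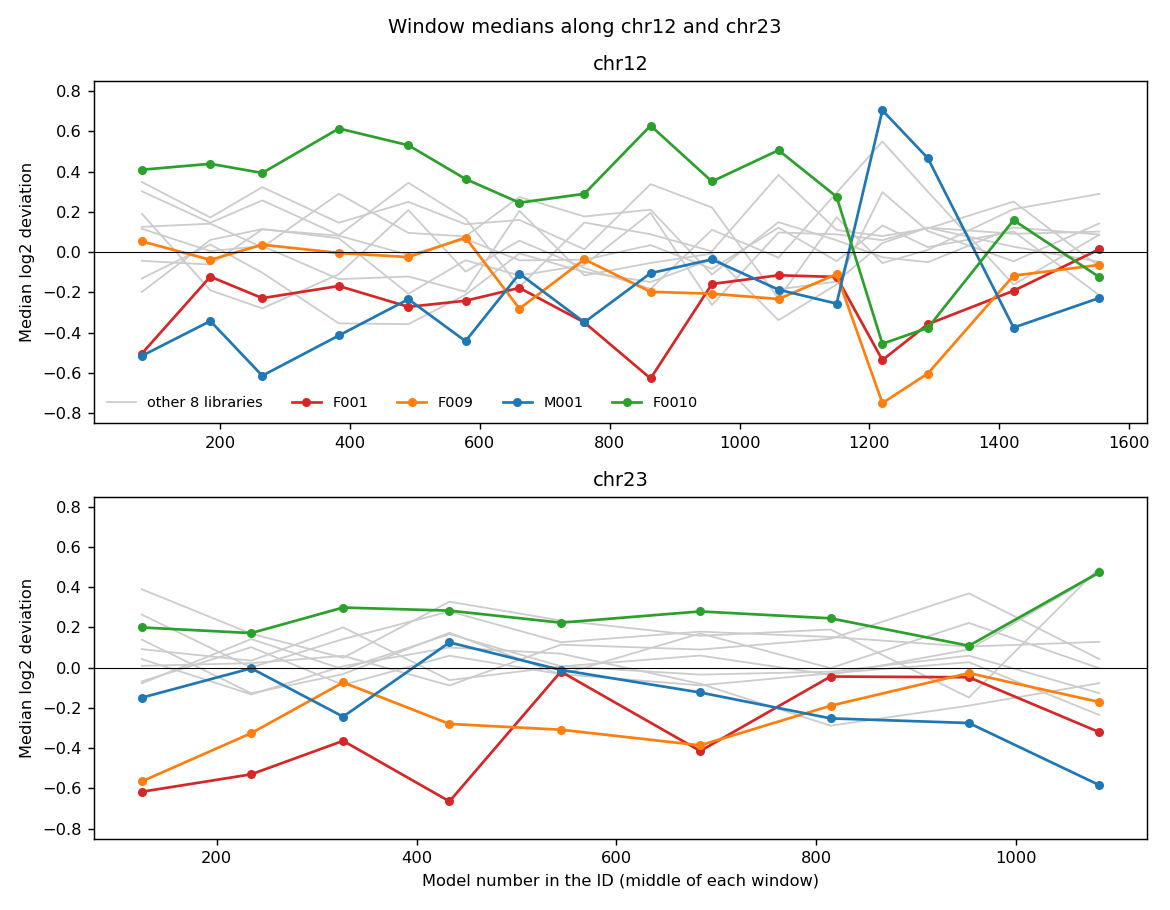
Median log2 deviation (vertical axis) of each window against the middle of its model numbers (horizontal axis) on chr12 (top) and chr23 (bottom), with F001 in red, F009 in orange, M001 in blue, F0010 in green and the other 8 libraries in grey. M001 goes from -0.26 in window 12 of chr12 to 0.70 in window 13, and F0010 from 0.28 to -0.46.

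The step into the stretch was among the larger ones of M001, F009, F0010, F001 and M0035, and the step out of it was less steep in some of them. From window 12 to window 13 the median of M001 moved by 0.96, and 2 of 425 steps between adjacent windows of other chromosomes were as large in that library. That of F009 moved by -0.64 (1 of 425 as large), that of F0010 by -0.73 (12 of 425) and that of F001 by -0.41 (12 of 425). That of M0035 moved by 0.46 (18 of 425), and that of M0011, high in the stretch, by 0.25 (141 of 425). From window 14 to window 15 M001 moved by -0.84 (10 of 425 as large), F009 by 0.49 (14 of 425), F0010 by 0.54 (37 of 425) and F001 by 0.17 (139 of 425). M0011 moved by -0.46 (41 of 425) and M0035 by -0.15 (216 of 425). In windows of 10 models the medians of M001 were -0.23 for models 1146 to 1193, then 0.73, 0.70, 0.68 and 0.33, and -0.46 for models 1338 to 1455. The window edges, such as that between models 1193 and 1195, were set by order alone, so the change is not placed more closely than these windows. Single models did not follow these borders without exception, since 8 of the 40 were below 0 in M001 and 8 of the 40 were above 0 in F001.

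Windows 13 and 14 lay nearer to the contig models than to the rest of chr12 in 8 of 12 libraries, and nearer to the rest in the other 4 (M006, M0027, F001 and F0016). The 8 include near ties, such as F0011 with the stretch at 0.05, the contigs at 0.09 and the rest at 0.001. They also include F009, whose stretch at -0.69 lay well below its contig median. The 919 contig models of the same abundance range had medians of 0.49 in M001, 0.27 in M0011, -0.40 in F0010, -0.21 in F009 and -0.10 in F001. They stood at -0.21 in M006 and -0.29 in M0027, where the stretch was at -0.03 and -0.002 and the rest of chr12 at 0.13 and 0.19. When the contig median was regressed out of each model across the 12 libraries, M001 stood at -0.01 in windows 13 and 14 and at -0.001 in the rest of chr12, and F0010 at 0.04 and 0.13. In M006 the same step left the stretch at 0.20 with the rest at 0.01, and in M0027 it left 0.25 with the rest at 0.09, where the measured stretch values had been near 0. F001 then stood at -0.28 in the stretch and -0.26 in the rest as a whole, but windows 11 and 12 before the border were at -0.11 and -0.10 and windows 13 and 14 at -0.39 and -0.25. F009 stood at -0.42 in the stretch and -0.19 in the rest. M001 and F0010 had the contig medians furthest from 0, so the fit drew most on them, and their loss of the stretch is not particular to it. On other chromosomes M001 was lowest in 146 and highest in 92 of 462 windows as measured. After the regression it was lowest in 21 and highest in 8. What the contig median stands for was not tested.

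**Figure D4:**
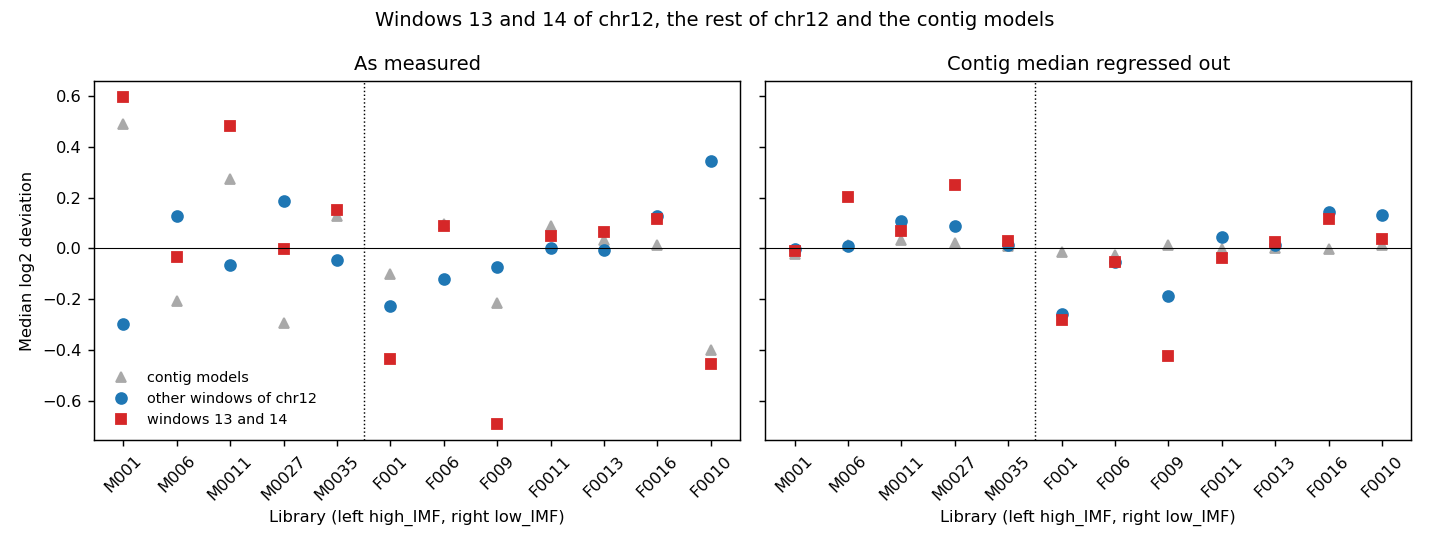
Median log2 deviation (vertical axis) in each library (horizontal axis) of the contig models (grey triangles), of windows 13 and 14 of chr12 (red squares) and of the other chr12 windows (blue circles), as measured (left) and with the contig median regressed out (right). On the left M001 stands at 0.60 in the stretch and at -0.30 in the rest of chr12. On the right it stands at -0.01 and -0.001.

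With the contig median regressed out, the low values of F001 and F009 ran along both chromosomes. F001 was below 0 in 16 of 16 windows of chr12 and 9 of 9 of chr23, and so was F009. They were together the 2 lowest libraries in 8 of 16 windows of chr12 and 8 of 9 of chr23, against 4 of 462 (0.866%) elsewhere. Their medians were -0.26 and -0.20 on chr12 and -0.38 and -0.32 on chr23. The next lowest library was F006 at -0.05 on chr12 and M001 at -0.05 on chr23. Along chr23 the F001 windows still ran from -0.66 (window 4) to -0.04 (window 8). At the far end of chr12, window 16 (models 1514 to 1594) stood at -0.01 in F001 and -0.10 in F009, the values nearest 0 in F001.

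A ratio of mean squares between windows to those within windows put a number on evenness. A shift that is even along the chromosome does not change it, and models in random order give values near 1. In real order the medians of the other chromosomes lay above 1, so a ratio above 1 alone does not show an uneven shift. On chr12 it was 5.56 in F0010, 3.35 in M001, 2.62 in M0011, 2.46 in F009 and 1.51 in F001. Without windows 13 and 14 it was 2.37, 0.849, 1.33, 0.763 and 1.55. Those windows were chosen after their extreme medians had been seen, so the lower ratios follow in part from the choice and are not a test. The ratio of F001 did not fall. On the 35 other chromosomes with at least 3 windows the median ratio was 3.32 in M001, 2.68 in F0010, 1.96 in F009, 1.78 in M0011 and 1.35 in F001. The chr12 value of F0010 had 1 of 35 above it. Those of M0011, F001, F009 and M001 had 7, 11, 14 and 17 of 35 above them. On chr23 the ratio was 2.13 in F001 (5 of 35 others above) and 1.78 in F009 (20 of 35 above). It was 0.394 in M0011 and 0.747 in F0010, below all 35 other chromosomes in both. Neighbouring models also differed between the chromosomes. The deviations of consecutive members correlated with r from -0.018 (F006) to 0.268 (F0010) on chr12 over 319 pairs, and from -0.176 (F0013) to 0.178 (F006) on chr23 over 169 pairs, where the medians over other chromosomes lay between 0.101 and 0.197.

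On neither chromosome did the groups stand further apart than their own libraries. The chr12 median was 0.003 ± 0.15 (SD, n = 5) in high_IMF, next to -0.003 ± 0.17 (SD, n = 7) in low_IMF, and the groups differed by 0.006. The chr23 median was 0.04 ± 0.16 (SD, n = 5) and -0.04 ± 0.20 (SD, n = 7), a difference of 0.08. The 37 other chromosomes differed by -0.10 to 0.25 with a median of -0.01. With F001 and F009 left out of the low_IMF mean, and the same deviations, the differences were -0.06 on chr12 and -0.03 on chr23. Both libraries had been picked for their low values here, so this fall follows from the choice and is not a test. With deviations computed anew, the differences on chr12 and chr23 were 0.06 and 0.11 without F0010, and 0.07 and 0.14 without M001. In 0 of 16 windows of chr12 and 0 of 9 of chr23 did the group medians separate without overlap, where 3.90% of all 487 windows and 4.11% of the 462 on other chromosomes did. Without F001 and F009 the counts were also 0 and 0, with 5.13% of all windows and 5.41% of those on other chromosomes. The differences between window means were widest in window 13 of chr12, at 0.29 ± 0.34 (SD, n = 5) in high_IMF against -0.20 ± 0.36 (SD, n = 7) in low_IMF. That difference of 0.50 became 0.32 without F001 and F009, a fall that again follows from leaving out low libraries.

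Single models that passed the group test were scattered along both chromosomes. In edgeR's quasi-likelihood test with the Benjamini-Hochberg adjustment, 52 of 319 tested members of chr12 (16.3%) and 34 of 168 of chr23 (20.2%) had an adjusted p under 0.05, next to 18.0% of all 14031 models tested and 18.8% of the 12724 in the same abundance range. The filter on low counts left out 1 member of chr12 and 2 of chr23. On chr12, 26 members were higher (8.15%) and 26 lower (8.15%) in high_IMF. On chr23, 13 were higher (7.74%) and 21 lower (12.5%). Of all models tested 8.47% were higher and 9.53% lower, and of those in the abundance range 8.73% and 10.1%. The median log2 fold change (high_IMF over low_IMF) was 0.003 over the tested members of chr12 and 0.06 over those of chr23, where it was -0.02 over all tested models. Without F001 and F009, 25 and 18 members passed, and so did 10.4% of all models tested in that fit. Without M001 and M0011, 28 and 22 members passed, with 10.8% of all models, so the counts fell across the whole table.

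**Figure D5:**
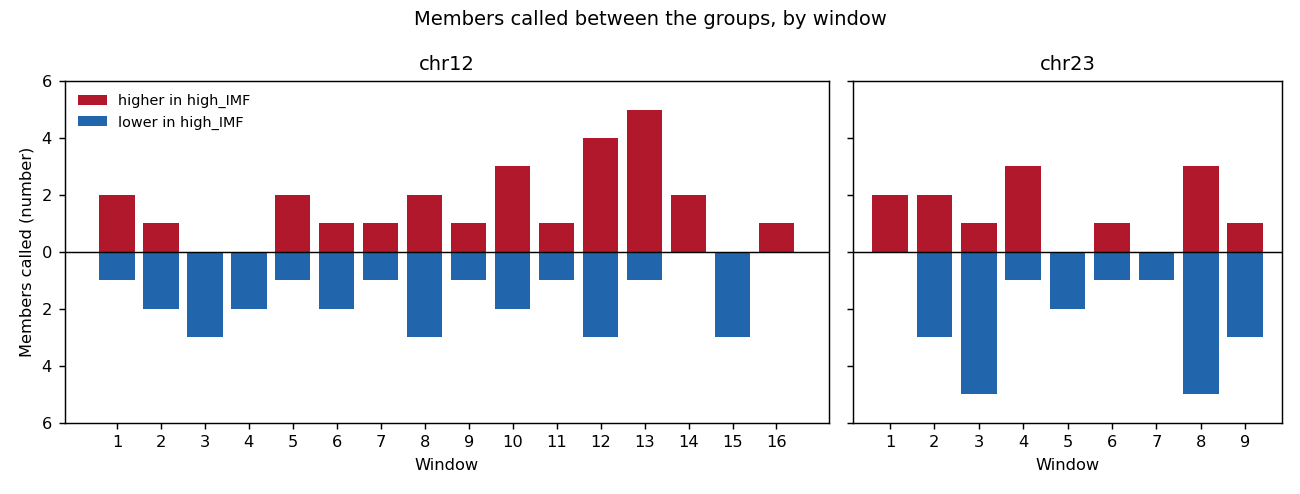
Number of members (vertical axis) with an edgeR adjusted p under 0.05 in each window (horizontal axis) of chr12 (left) and chr23 (right), red above 0 for higher and blue below 0 for lower in high_IMF. Window 13 of chr12 holds 5 higher and 1 lower, and windows 3 and 8 of chr23 hold 5 lower each.

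Each of the 25 windows held at least 1 such member, where 18.0% of all models tested passed. In windows 13 and 14 of chr12, 8 of 40 members passed (20%), near that share, with 7 higher and 1 lower in high_IMF. Of the 40, 31 had a positive log2 fold change (median 0.28), where 48.8% of tested models in the abundance range did. Without F001 and F009 it was positive in 27 (median 0.19), and without M001 and M0011 in 24 (median 0.15). The stretch was chosen after its medians in these same libraries had been seen. The share of positive values thus follows in part from the choice and is not a test. In the other windows of chr12, 44 of 279 passed (15.8%), 19 higher and 25 lower, with a median of -0.04. The count in windows 13 and 14 was 4 (10%) without F001 and F009 and 1 (2.5%) without M001 and M0011. That in the other windows was 21 (7.53%) and 27 (9.68%). Of all models tested in those fits, 10.4% and 10.8% passed. On chr12 the most calls fell in window 12, with 4 higher and 3 lower of 20. On chr23 the most calls fell in window 8 (models 867 to 1039), with 3 higher and 5 lower of 20, and in window 3 (models 267 to 386), with 1 higher and 5 lower of 20. Window 9 of chr23, with 10 members, held 1 higher and 3 lower, the same share (40%) as window 8. Log2 fold changes of consecutive tested members correlated with r = 0.223 over 317 pairs on chr12 and -0.113 over 165 pairs on chr23, where the median over other chromosomes was 0.167. Adjacent models may belong to a single gene or draw on the same reads, and no source used here gives the strand setting of the counting.

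The members at the ends of the fold changes were mostly scarce. On chr12, evm.model.chr12.1282.g, in window 14, had the highest log2 fold change among those that passed. Its counts were 19 in M001, 16 in M006, 29 in M0011, 32 in M0027 and 64 in M0035, and in low_IMF they ran from 0 (F009 and F0010) through a median of 5 to 20 (F006). F006 lay above M006 once scaled (1.22 against 0.818 CPM), so the groups overlapped. It stood at 2.33 ± 1.17 scaled CPM (SD, n = 5) against 0.399 ± 0.439 (SD, n = 7). The log2 fold change was 2.52 with an SE of 0.73 (edgeR adjusted p = 0.0285). The lowest on chr12 was evm.model.chr12.457.g, in window 5, with 0 to 9 counts in the high_IMF libraries and 11 to 39 in the low_IMF libraries. No high_IMF library exceeded 0.502 CPM, so this model entered the range from 1 CPM only through the low_IMF libraries. Its call thus depended on the group in which it was high. Its log2 fold change was -2.17 (SE 0.61, edgeR adjusted p = 0.0236), from 0.317 ± 0.227 scaled CPM (SD, n = 5) and 1.43 ± 0.614 (SD, n = 7). Once scaled, M001 lay above F0013 at 0.516 CPM, so the groups overlapped.

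On chr23 the highest was evm.model.chr23.1011.g, in window 8. Its counts were 99 in M001, 165 in M006, 59 in M0011, 340 in M0027 and 266 in M0035, and in low_IMF they ran from 0 (F001) through a median of 57 to 120 (F0010). F0010 lay above M0011, at 7.79 against 4.69 scaled CPM, so the groups overlapped. The means were 13.01 ± 7.20 scaled CPM (SD, n = 5) and 3.35 ± 2.49 (SD, n = 7). Its log2 fold change was 1.96 (SE 0.63, edgeR adjusted p = 0.0433). The lowest on chr23 was evm.model.chr23.246.g, in window 2, with 2, 0, 0, 6 and 5 counts in M001, M006, M0011, M0027 and M0035. In low_IMF its counts ran from 0 (F009) through a median of 33 to 65 (F0016), and F009 overlapped the high_IMF libraries. No high_IMF library exceeded 0.410 CPM, so this model too entered the range from 1 CPM only through the low_IMF libraries. The means were 0.193 ± 0.186 scaled CPM (SD, n = 5) and 1.79 ± 1.35 (SD, n = 7). Its log2 fold change was -3.19 (SE 0.99, edgeR adjusted p = 0.0369). Each of these 4 calls was lost when single libraries were left out. In the edgeR fits the adjusted p of evm.model.chr12.1282.g was 0.0810 without M0035, 0.0558 without F0016, 0.0556 without M0011 and 0.0535 without F0011. That of evm.model.chr12.457.g was 0.0561 without M0035. That of evm.model.chr23.1011.g ran from 0.0574 to 0.101 without any one of M001, M0027, M0035, F006, F009, F0011, F0013 and F0016. That of evm.model.chr23.246.g was 0.0635 without M001, 0.0659 without M006, 0.0813 without M0011 and 0.0594 without M0035, and the filter removed this model when F006, F0011, F0013, F0016 or F0010 was left out. Over all alternatives in which each was tested, the adjusted p ran from 0.00464 to 0.498, 0.00264 to 0.383, 0.0185 to 0.419 and 0.00575 to 0.287, in the order named, and the direction did not change. For the lowest model of each chromosome the direction follows in part from its entry through low_IMF and is no added support.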

How the data were processed

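The authors deposited raw counts per gene model, whole numbers with no normalization, in one table for all 12 libraries. Per the submitters' processing notes, HISAT2 and DESeq2 were used, at versions and for steps that the notes leave out. No source used here gives the program that counted reads, the genome build, the annotation or the strandedness. The members, windows and alternatives were chosen with earlier results of these data known.

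Counts were filtered with filterByExpr, scaled by TMM and tested over all 14031 models with edgeR 4.0.16 in R 4.3.3 (quasi-likelihood test, Benjamini-Hochberg adjustment, threshold 0.05). Each SE is the size of the log2 fold change over the square root of its F. limma 3.58.1 (voom) and DESeq2 1.42.0 were alternatives. Both the edgeR fit and the window measures were tested on simulated data.

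Deviations used a prior count of 2. A last window of fewer than 10 models was joined to the one before. Chromosomes needed at least 20 models for a median. Scores over members were given no p. The 4 models named by ID had the highest and lowest log2 fold change among members called on each chromosome. The abundant models named by number, the stretches of windows and the steps between windows were chosen after seeing the data.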

Additional observations from a re-analysis of the deposited data

Results flagged for a closer look

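Of 72 groups of per-library values (chromosome medians, summed counts, window medians, windows 13 and 14 of chr12 and the 4 models named by ID), 2 had 1 library apart by Dixon's criterion, where chance gives about 1 in 20. In window 1 of chr12, M001 stood at a median log2 deviation of -0.52 and the next lowest high_IMF library at 0.12. In window 8 of chr23, F0013 stood at 0.37 and the next highest low_IMF library at 0.11.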

How the results depend on the processing

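The group differences in chromosome medians stayed within 1 SD of the values given in all 36 alternatives, and the count of windows without overlap was 0 in all 40. Counts of members called depended on the libraries. With each library left out they ran from 30 to 61 on chr12 and from 20 to 34 on chr23, while those of all models ran from 1696 to 2628. They were 25 and 18 without F001 and F009, and 28 and 22 without M001 and M0011, where all models fell from 2525 to 1430 and 1579. In windows 13 and 14 of chr12, 8 members passed with all libraries, 4 without F001 and F009, and 1 without M001 and M0011. In its other windows the counts were 44, 21 and 27. These are calls of each fit and not calls kept from the main fit. All 25 chr12 calls without F001 and F009 were also calls with all libraries. Of the 28 without M001 and M0011, 22 were, and the rest were new. The cause of the lower counts was not tested.

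Library numbers 001, 006 and 0011 occur in both groups. The labels do not describe them as pairs, so they were not taken as pairs. Their deviations correlated with r of 0.000164, -0.124 and 0.114. Libraries with unlike numbers were not compared, so these values cannot decide the question. With the number as a replicate block over 6 libraries, 0 members of chr12 and 1 of chr23 passed (13 of all models), and the same 6 libraries without the block also gave 0 and 1 (22 of all models). Other scalings, filters and tools gave 39 to 65 calls on chr12 and 28 to 39 on chr23. Calls over all models ran with them, from 2214 of 20599 tested without the low-count filter to 3421 of 16205 with DESeq2.

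The low medians of F001 and F009 moved by less than 1 SD of the low_IMF medians in each alternative. That SD includes both libraries and was 0.17 on chr12 and 0.20 on chr23. It is a loose limit, as the F009 median on chr12 was only -0.13. On chr12 F009 ran from -0.20 (contig median regressed out) to -0.07 (no centring on the library median). There F001 ran from -0.30 (summed counts) to -0.17 (median over libraries as reference). Of their ratios between and within windows, that of F009 on chr12 was 0.750 with the contig median regressed out, 0.763 without windows 13 and 14 and 4.83 with windows of 40 models. On chr23 that of F001 was 1.46 with windows of 10, 3.09 with windows of 40 and 2.85 with deviations limited to -1 to 1, and that of F009 was 2.41 from 5 CPM up and 2.80 with windows of 40.

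The adjusted p of evm.model.chr12.1282.g ran from 0.00464 to 0.498 over 21 alternatives (8 not past the threshold), of evm.model.chr12.457.g from 0.00264 to 0.383 (5 of 21), of evm.model.chr23.1011.g from 0.0185 to 0.419 (13 of 21) and of evm.model.chr23.246.g from 0.00575 to 0.287 (6 of 14). Depth limits the scarce members, at 1 to 10 CPM.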

Other observations

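Below the abundance range, 9 models had at least 5 counts in both F001 and F009 and 0 in the other 10 libraries, and 3 of them lay on chr12. These were number 46, with 58 counts in F001 and 28 in F009, number 288, with 8 and 7, and number 1405, with 22 and 53. Of the other 6, 1 lay on chr2, 4 on contigs and 1 was a newGene model, and 0 lay on chr23. For the 65 other pairs of libraries, at most 8 models were seen in one pair only (median 1), and at most 1 of them lay on chr12. The pattern was looked for after the low values of F001 and F009 had been seen, and it was not tested.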
